A study of Mus musculus with 6 samples.

Results

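Interferon-stimulated genes were followed in the hearts of 6 C57BL/6 mice by bulk RNA sequencing. The set holds 36 genes listed by symbol, all of which matched a row among the 49315 genes of the count table. Of the 36, 33 had enough counts to be tested, and Oas3, Mx1 and Cxcl10 did not. The samples were 3 wild-type hearts (Txnip WT) and 3 hearts with a conditional knock-in of the Txnip C247S mutant. The labels give MerCreMer, a recombinase switched on by tamoxifen, and 4-hydroxytamoxifen for both genotypes. They do not say which promoter drove the recombinase or whether the wild-type hearts carried it, and age is not given in the sources used here.

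Interferons are secreted proteins that warn cells of infection. Type I interferons act through the receptor chains Ifnar1 and Ifnar2 and the kinases Jak1 and Tyk2, which activate a complex holding Stat2 and Irf9 that binds the interferon-stimulated response element (ISRE) in gene promoters. Interferon gamma acts through Ifngr1 and Ifngr2 and the kinases Jak1 and Jak2, and its target genes can carry the gamma-activated site (GAS). Both routes switch on overlapping sets of genes whose products sense viral nucleic acid, block viral RNA and protein synthesis, attack the membranes of vacuoles that hold microbes, or recruit lymphocytes.

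The ISRE is what many of these genes share in their promoters. Windows of 300 bases, from 250 before to 50 after each transcription start, were available for 27 of the 36 genes (RefSeq, GRCm38.p6). The ISRE core was searched as GAAA, any 2 bases and GAAA, or on the other strand TTTC, any 2 bases and TTTC, and it occurred in a window of 18 of the 27 genes (66.7%) against 3.99% of all 27025 genes with a window. The GAS pattern TTCNNNGAA, which reads the same on both strands, occurred in 6 of the 27 (22.2%) against 9.55% of all genes. A match is a run of letters and does not show that a factor binds there.

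Promoters are shown for genes on which the results turn, the GTPase genes Igtp, Irgm1 and Gbp2 with Isg15 and Ifi35, each 5′ to 3′ on the gene's own strand with ISRE core matches in capitals. The windows lie at chr11:58199306-58199605 (plus strand) for Igtp, chr11:48871371-48871670 (minus strand) for Irgm1, chr3:142620413-142620712 (plus strand) for Gbp2, chr4:156200769-156201068 (minus strand) for Isg15 and chr11:101448162-101448461 (plus strand) for Ifi35. Igtp and Gbp2 hold 1 match each, Irgm1 has 2 overlapping matches and Isg15 has 3, and the window of Ifi35 has none.
Igtp: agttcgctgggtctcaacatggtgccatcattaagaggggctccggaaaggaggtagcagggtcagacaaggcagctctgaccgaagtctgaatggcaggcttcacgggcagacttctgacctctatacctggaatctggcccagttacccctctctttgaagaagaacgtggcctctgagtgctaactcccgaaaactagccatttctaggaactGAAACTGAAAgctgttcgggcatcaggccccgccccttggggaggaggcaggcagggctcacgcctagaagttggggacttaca
Irgm1: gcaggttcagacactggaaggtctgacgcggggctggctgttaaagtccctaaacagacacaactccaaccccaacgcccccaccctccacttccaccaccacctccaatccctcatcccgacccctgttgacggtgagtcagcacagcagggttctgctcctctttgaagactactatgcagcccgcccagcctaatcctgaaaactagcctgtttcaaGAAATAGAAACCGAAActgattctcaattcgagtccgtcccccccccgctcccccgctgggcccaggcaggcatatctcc
Gbp2: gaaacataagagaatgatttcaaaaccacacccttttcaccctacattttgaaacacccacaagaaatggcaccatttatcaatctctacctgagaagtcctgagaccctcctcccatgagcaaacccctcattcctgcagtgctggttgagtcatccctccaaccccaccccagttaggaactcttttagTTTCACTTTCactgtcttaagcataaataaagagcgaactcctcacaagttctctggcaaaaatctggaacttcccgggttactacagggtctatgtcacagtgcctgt
Isg15: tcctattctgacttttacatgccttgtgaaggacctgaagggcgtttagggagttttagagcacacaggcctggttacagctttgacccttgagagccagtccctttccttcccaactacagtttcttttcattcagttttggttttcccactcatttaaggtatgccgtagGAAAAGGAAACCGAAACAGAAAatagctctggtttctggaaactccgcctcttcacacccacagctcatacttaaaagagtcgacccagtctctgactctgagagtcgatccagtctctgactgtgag
Ifi35: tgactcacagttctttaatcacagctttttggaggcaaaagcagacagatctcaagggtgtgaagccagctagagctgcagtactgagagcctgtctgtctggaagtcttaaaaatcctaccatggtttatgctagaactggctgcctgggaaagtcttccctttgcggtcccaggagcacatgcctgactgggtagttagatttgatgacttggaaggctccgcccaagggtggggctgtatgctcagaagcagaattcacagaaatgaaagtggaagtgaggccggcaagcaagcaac

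Counts are given as CPM, that is counts scaled to library size after trimmed-mean (TMM) scaling of the libraries, whose totals lay between 14146048 and 15620476. The floor of detection, taken as 3 counts in a library, equals 0.195 to 0.208 CPM. Txnip itself stood at 724, 791 and 741 CPM in the wild-type and 438, 391 and 429 CPM in the knock-in hearts. The heart muscle markers Myh6, Actc1, Tnnt2, Tnni3, Myl2 and Ryr2 were high in every library. They summed to 57500, 53600 and 55700 CPM in wild-type and 66700, 59900 and 64900 CPM in knock-in hearts. Mitochondrial transcripts took 28.0% of the counts in wild-type replicate 3 and 22.9% to 24.3% in the other hearts. All 12 interferon ligand genes examined, among them Ifnb1, Ifng and Ifna4, had 0 counts in every heart. That allows a level of up to the floor where reads can be assigned to the gene. Of the 31-base words of Ifna1, Ifnz, Ifna5 and Ifnl3, 88.3%, 85.2%, 74.3% and 51.8% also occur in other genes. The handling of multi-mapped reads is not given, so the floor may not bound the level of such genes.

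The interferon-stimulated genes were present at low to moderate levels in every heart. Together the 36 genes took 296 to 381 CPM per heart. Per kilobase of exon, the highest mean level over the 6 hearts was that of Ifi27l2a, the gene of a small interferon-induced membrane protein, at 44.2 CPM per kilobase. It was followed by Bst2, whose product tethers budding virus to the cell surface, at 24.3 CPM per kilobase and Igtp, an interferon-inducible GTPase, at 14.1. Isg15 (8.30), Ifi35 (8.18) and Gbp2 (7.98) came next and did not differ from each other beyond the spread over hearts. At the other end lay Oas3 (0.0491), Mx1 (0.0691), Cxcl10 (0.115) and Mx2 (0.200). These levels use the summed exon length of each gene, which may be longer than the transcript made in heart.

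No gene of the set passed the test between genotypes. Of the 33 tested, 0 had an edgeR adjusted p under 0.05, against 38 of all 12777 genes tested (0.297%). DESeq2 and limma-voom also called 0 of the 33, where they called 1% and 0.188% of all genes. Without adjustment 3 genes had a p under 0.05, Ifi35 and Igtp higher and Ifi27l2a lower in the knock-in hearts, and 9.97% of all genes passed that threshold. The adjusted p of the 33 ran from 0.268 to 0.999. Log2 fold changes (knock-in over wild-type) were above 0 for 16 genes (48.3% of all genes) and below 0 for 17, with a median of −0.09 beside −0.007 over all tested genes. The median changed sign when single hearts were left out, from −0.13 to 0.04. The count of 0 also held under other settings, in which the share of all genes called was 0.313% with upper-quartile scaling and with a mean of at least 1 CPM, 0.29% without robust estimation and 0.587% at an adjusted p under 0.1. With single hearts left out the share of all genes ran from 0.0385% without wild-type replicate 2 and 0.0462% without knock-in replicate 3 to 1.34% without knock-in replicate 2, with 0 of the set called each time. In the 4 hearts other than wild-type replicate 3 and knock-in replicate 2 it was 3.04%, again with 0 of the set.

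The intervals of these differences were narrow for most genes. The 95% interval of the log2 fold change lay within 1 on either side of 0, a change of less than 2-fold, for 29 of the 33 genes, and for 86.1% of all genes. The intervals that went past 1 were those of Igtp (0.06 to 2.10), Zbp1 (−1.48 to 0.32), Dhx58 (−1.30 to 0.27) and Mx2 (−1.17 to 0.54). Zbp1, Dhx58 and Mx2 were the least abundant of the tested genes, at means of 1.13, 1.34 and 0.724 CPM over the 6 hearts. Igtp was among the most abundant.

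**Figure D1:**
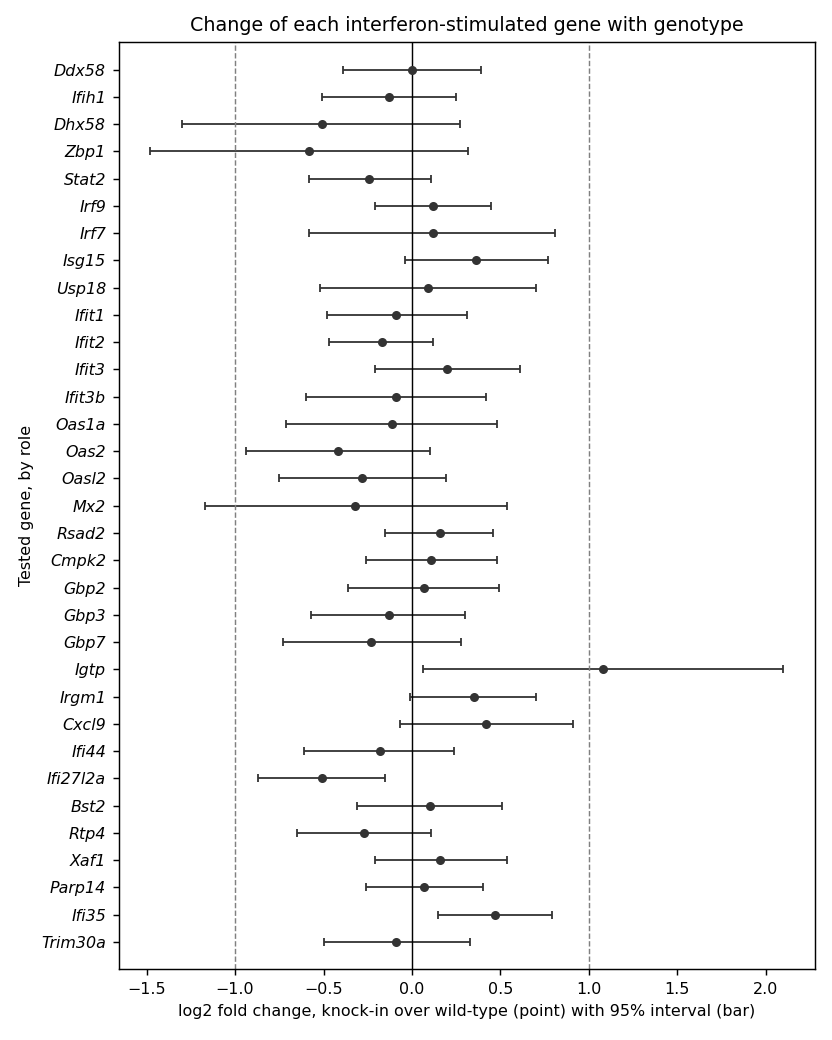
Log2 fold change of each of the 33 tested genes (horizontal axis, knock-in over wild-type; genes on the vertical axis by role), with points for the edgeR estimate and bars for its 95% interval. Dashed lines mark 1 and −1, and 29 of the 33 intervals lie between them, while that of Igtp reaches 2.10.

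The sensors of foreign nucleic acid lay close to no change or had few counts. Ddx58 (RIG-I) and Ifih1 (MDA5) detect viral RNA, Dhx58 (LGP2) tunes both, and Zbp1 binds left-handed nucleic acid and can start cell death. Ddx58 stood at 10.3, 6.93 and 8.30 CPM in wild-type and 8.91, 7.58 and 9.07 CPM in knock-in hearts, a log2 fold change of 0.00 ± 0.18 (SE). Ifih1 had 8.59, 9.0 and 7.96 CPM in wild-type and 8.65, 6.19 and 8.52 CPM in knock-in hearts (−0.13 ± 0.17), so that knock-in replicate 2 alone lay outside the wild-type range on the low side. Dhx58 showed the same low heart, with 1.91, 1.39 and 1.45 CPM in wild-type against 1.43, 0.593 and 1.30 CPM in knock-in hearts (−0.51 ± 0.36, adjusted p = 0.705). Zbp1 had 1.23, 2.08 and 0.761 CPM in wild-type and 1.17, 0.791 and 0.750 CPM in knock-in hearts (−0.58 ± 0.41), and its highest value, in wild-type replicate 2, rested on 30 counts.

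Among the signal transducers, Irf7, the factor that amplifies type I interferon production, varied most. It stood at 15.2, 14.3 and 6.37 CPM in wild-type and 15.1, 9.95 and 13.9 CPM in knock-in hearts. Wild-type replicate 3 was the lowest and knock-in replicate 2 the next lowest, and the genotypes overlapped (log2 fold change 0.12 ± 0.30, adjusted p = 0.956). Its sign turned to −0.19 without wild-type replicate 3. Stat2 (−0.24 ± 0.16) and Irf9 (0.12 ± 0.15), both part of the ISRE-binding complex, spanned 9.03 to 13.6 and 11.7 to 17.3 CPM.

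The ISG15 system was measured by Isg15, a ubiquitin-like modifier, and Usp18, the protease that removes it and also damps the type I receptor. Isg15 stood at 5.73, 5.40 and 5.33 CPM in wild-type and 8.59, 6.19 and 6.41 CPM in knock-in hearts. Each knock-in value lay above each wild-type value, but the log2 fold change of 0.36 ± 0.18 did not pass (adjusted p = 0.564). Usp18 had 3.89, 5.61 and 2.70 CPM in wild-type and 4.94, 4.68 and 3.34 CPM in knock-in hearts (0.09 ± 0.28), with full overlap and a sign that turned when single hearts were left out.

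The 4 IFIT genes lie within 99 kb on chromosome 19 (34550694 to 34650009) and encode proteins that bind viral RNA ends. Ifit2 had the smallest ratio between its highest and lowest heart of all 33 tested genes, 1.31, at 11.6, 11.0 and 12.7 CPM in wild-type and 9.69, 10.8 and 10.8 CPM in knock-in hearts (−0.17 ± 0.13). Ifit3 (0.20 ± 0.19) spanned 7.75 to 12.7 CPM, Ifit1 (−0.09 ± 0.18) 5.38 to 7.55 CPM and Ifit3b (−0.09 ± 0.23) 3.11 to 4.71 CPM. Of the 31-base words of Ifit3, 61.8% also occur in Ifit3b, so the split of reads between this pair is uncertain.

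The OAS genes belong to a family of proteins that respond to double-stranded RNA. Oas2 stood at 6.13, 5.75 and 5.12 CPM in wild-type and 5.86, 3.49 and 3.34 CPM in knock-in hearts, so knock-in replicates 2 and 3 fell outside the wild-type range and replicate 1 did not (−0.42 ± 0.24, adjusted p = 0.626). Oasl2 was low in the same hearts, with 6.95, 7.27 and 6.85 CPM in wild-type and 7.68, 4.41 and 5.25 CPM in knock-in hearts (−0.28 ± 0.21). Oas1a spanned 2.01 to 3.68 CPM (−0.11 ± 0.27), and 68.7% of its words also occur in Oas1g. Oas3 was not tested, at 8, 2 and 4 counts in wild-type and 7, 6 and 4 counts in knock-in hearts.

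The Mx genes encode GTPases that trap viral nucleoproteins, and common inbred mouse strains carry a defective Mx1. Mx1 had 5, 7 and 1 counts in wild-type and 2, 0 and 8 counts in knock-in hearts, at or near the floor, and was not tested. Mx2, which the gene annotation classes as a polymorphic pseudogene, stood between 0.455 and 0.886 CPM (−0.32 ± 0.39). The neighbouring genes Rsad2, whose product viperin makes a chain-ending nucleotide, and Cmpk2, which supplies its substrate, lay on chromosome 12. Rsad2 was among the most abundant genes of the set, at 20.4, 23.1 and 20.8 CPM in wild-type and 27.0, 19.9 and 24.8 CPM in knock-in hearts (0.16 ± 0.14). Cmpk2 had 9.47, 9.56 and 10.2 CPM in wild-type and 11.7, 8.10 and 11.7 CPM in knock-in hearts (0.11 ± 0.17). In both, knock-in replicate 2 was the lowest heart and the other knock-in hearts were the highest.

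The interferon-inducible GTPases held the largest difference between hearts. Igtp (Irgm3; ENSMUSG00000078853, chromosome 11, 58199556 to 58207591, GRCm38) stood at 14.2, 27.1 and 13.4 CPM in wild-type and 22.4, 56.7 and 36.7 CPM in knock-in hearts. Knock-in replicate 2 was 4.22-fold above wild-type replicate 3, and its exact 95% counting interval (53.0 to 60.6 CPM, 861 counts) lay apart from those of the other hearts. The interval of knock-in replicate 3 (33.6 to 39.9 CPM) also lay apart from the rest, and such intervals cover counting error only. The genotypes overlapped, since wild-type replicate 2 exceeded knock-in replicate 1. The means were 18.3 ± 7.70 and 38.6 ± 17.2 CPM (SD, n = 3 per genotype), with a log2 fold change of 1.08 ± 0.42 that did not pass over all genes (edgeR adjusted p = 0.474). Without knock-in replicate 2 it was 0.70, and without wild-type replicate 3 as well it was 0.52. Igtp overlaps Irgm2 on the same strand over 8.01% of its exonic bases, and 16.4% of its 31-base words also occur in Irgm2, so reads may be split between them.

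Of the other GTPases, Irgm1 was also above every wild-type heart in knock-in replicate 2, and the Gbp genes were not. Irgm1, which governs the membrane targeting of its relatives, stood at 21.3, 23.3 and 16.6 CPM in wild-type and 21.3, 27.7 and 28.8 CPM in knock-in hearts (0.35 ± 0.16, adjusted p = 0.508). The guanylate-binding protein genes Gbp7, Gbp3 and Gbp2, which lie side by side on chromosome 3, were all highest in wild-type replicate 2. Gbp2 had 17.7, 26.6 and 14.5 CPM in wild-type and 20.2, 20.2 and 21.2 CPM in knock-in hearts (0.07 ± 0.19). Gbp7 had 12.3, 15.2 and 9.41 CPM in wild-type and 7.74, 13.7 and 10.1 CPM in knock-in hearts (−0.23 ± 0.23). Gbp3 followed the same order of extremes as Gbp7, 17.9 CPM in wild-type replicate 2 and 10.5 CPM in knock-in replicate 1 (−0.13 ± 0.20). Gbp3 and Gbp7 share part of their sequence, 6.90% of the words of Gbp3.

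**Figure D2:**
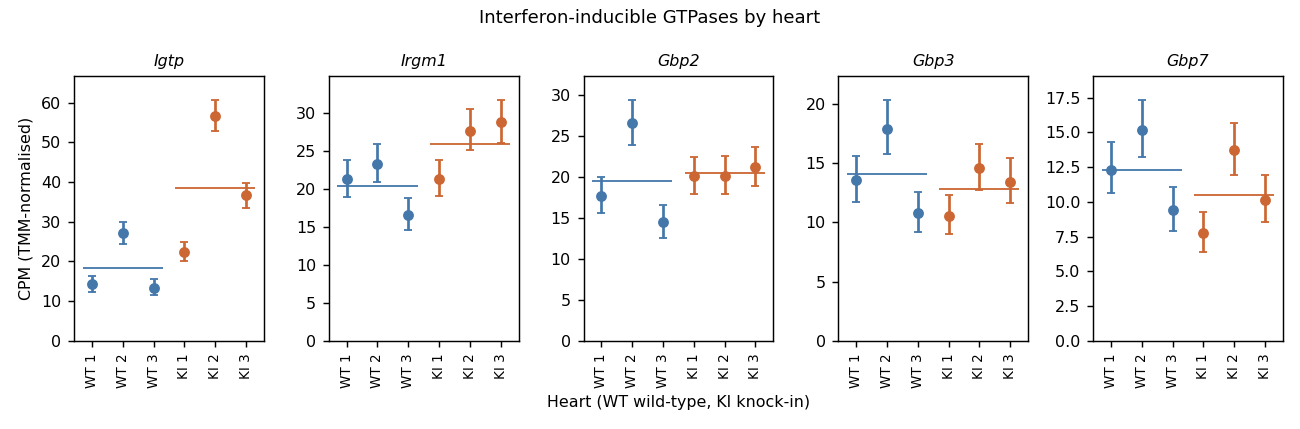
CPM of the 5 GTPase genes (vertical axes, each from 0) in each heart (horizontal axis), with points for hearts, bars for the exact 95% counting interval and lines for the mean of each genotype. Igtp in knock-in replicate 2, at 56.7 CPM, stands above the other 5 hearts, while Gbp2, Gbp3 and Gbp7 are highest in wild-type replicate 2.

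The chemokine Cxcl9, which draws in T cells and is induced mainly by interferon gamma, had 5.39, 6.03 and 4.08 CPM in wild-type and 7.09, 5.27 and 8.38 CPM in knock-in hearts. Knock-in replicate 2 lay within the wild-type range and the other knock-in hearts above it (0.42 ± 0.22, adjusted p = 0.585). Cxcl10, its relative, was near the floor, with 3, 8 and 2 counts in wild-type and 5, 2 and 3 counts in knock-in hearts.

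Among the remaining antiviral and modifier genes, Ifi27l2a and Ifi35 had the smallest p of the set. Ifi35 (ENSMUSG00000010358, chromosome 11, 101448407 to 101458698), a partner of Nmi in innate signalling, stood at 13.0, 12.9 and 9.69 CPM in wild-type and 17.0, 15.8 and 16.4 CPM in knock-in hearts. The genotypes did not overlap, with means of 11.8 ± 1.86 and 16.4 ± 0.585 CPM (SD, n = 3), a log2 fold change of 0.47 ± 0.14 and an edgeR adjusted p of 0.268. An unnamed gene on the opposite strand, Gm11626, covers 16.8% of the exonic bases of Ifi35, and the strand setting of the counting is not given in the sources used here.

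Ifi27l2a (ENSMUSG00000079017, chromosome 12, 103442167 to 103443680) went the other way. It stood at 25.3, 24.8 and 22.0 CPM in wild-type and 21.4, 13.8 and 15.3 CPM in knock-in hearts. Knock-in replicate 1 lay just under the lowest wild-type heart and the other knock-in hearts well under it, for a log2 fold change of −0.51 ± 0.16 (edgeR adjusted p = 0.295). With no filter on low counts the same estimate had an adjusted p of 0.0404, where 1.46% of 21655 genes were called, the only call within the set in any setting tried. In all, 5 of the 33 tested genes had genotypes that did not overlap, Isg15 and Ifi35 higher and Ifit2, Rtp4 and Ifi27l2a lower in the knock-in hearts, beside 16.1% of all genes (8.12% higher and 7.99% lower).

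The others of this group had smaller log2 fold changes, in either direction, than Ifi35 and Ifi27l2a. Rtp4, a receptor transporter protein, had 7.09, 6.44 and 6.02 CPM in wild-type and 5.66, 4.81 and 5.73 CPM in knock-in hearts (−0.27 ± 0.17, adjusted p = 0.669). Parp14, an ADP-ribosyltransferase and among the most abundant of the set, spanned 18.5 to 25.3 CPM (0.07 ± 0.15). Bst2 spanned 15.5 to 26.9 CPM (0.10 ± 0.18), Trim30a 5.60 to 8.72 (−0.09 ± 0.19), Xaf1 5.67 to 7.63 (0.16 ± 0.17) and Ifi44 4.02 to 5.54 CPM (−0.18 ± 0.19).

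Single hearts were then compared over the whole set, to see whether a heart carried a raised programme. For each tested gene the log2 CPM of a heart was taken relative to the mean of the 6 hearts, and these values were averaged over the 33 genes. No heart stood far above the rest. The level was 0.07, 0.14 and −0.20 in wild-type and 0.08, −0.13 and 0.04 in knock-in hearts, a span of 0.35 from wild-type replicate 2 to wild-type replicate 3. Wild-type replicate 3 and knock-in replicate 2 had the lowest levels. The same average over all tested genes lay between −0.02 and 0.02.

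The same hearts appear in the counts of lowest values. Wild-type replicate 3 was the lowest heart for 14 of the 33 genes, beside 22.2% of all tested genes, and knock-in replicate 2 for 10 of 33, beside 20.9%. Each was the highest heart for 1 of the 33 genes, Ifit2 and Igtp respectively, beside 20.3% and 19.0% of all genes. Wild-type replicate 2 was the highest for 10 genes (13.4% of all genes) and wild-type replicate 1 for 9 (16.5%), the latter being the lowest for 0 of the 33 (13.3%). The genes also varied more between hearts than most, with a median span of 0.76 on the log2 CPM scale against 0.54 over all tested genes. Their typical level was lower, however, at a median of 8.51 CPM against 13.9 CPM, and the part of counting error in the wider span was not tested.

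**Figure D3:**
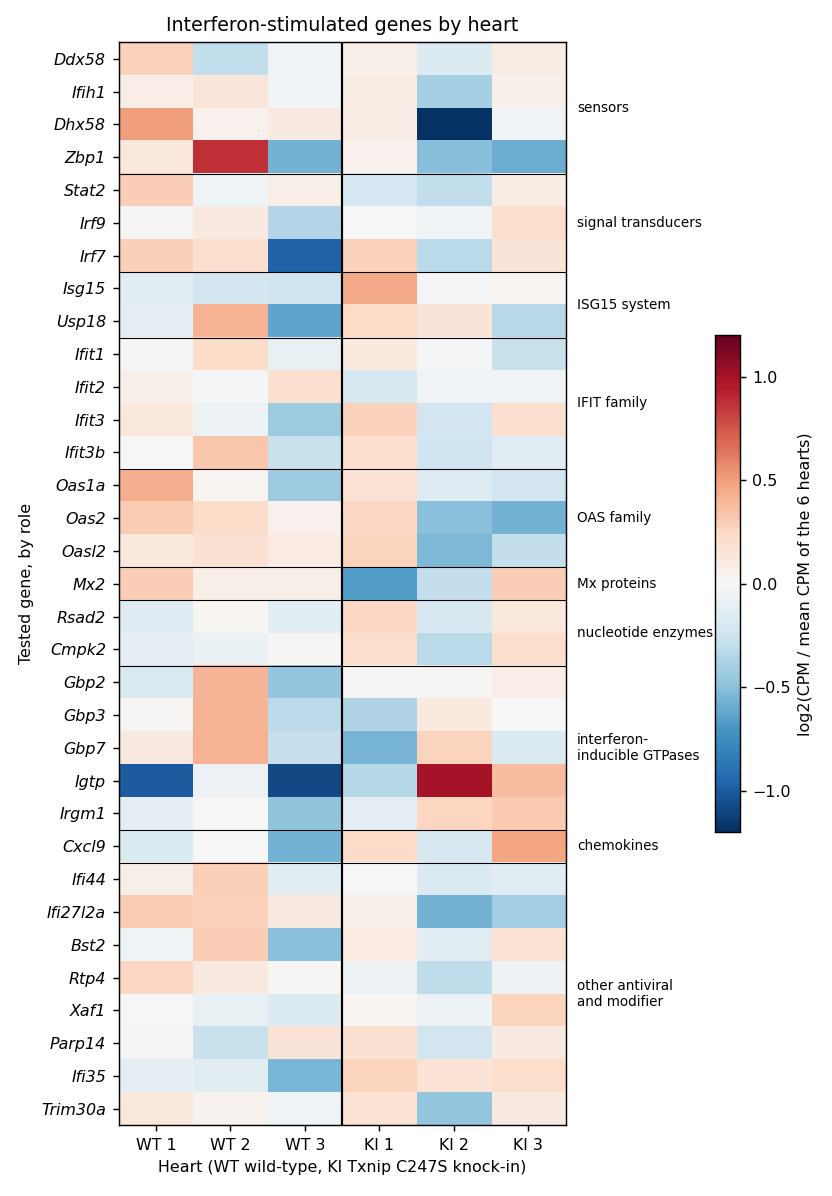
Each tested gene (rows, by role) in each heart (columns), coloured by the log2 ratio of its CPM to the mean of the 6 hearts, from blue (low) to red (high). Columns WT 3 and KI 2 hold the lowest value of 14 and 10 of the 33 genes, and Igtp in KI 2 is the deepest red.

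Both low hearts were under the mean in the signal transducers (−0.39 and −0.19 in wild-type replicate 3 and knock-in replicate 2), the IFIT family (−0.13 and −0.12) and the other antiviral and modifier genes (−0.12 and −0.20). Both were also under it in the sensors (−0.07 and −0.46) and the OAS family (−0.06 and −0.36). The same held for Rsad2 with Cmpk2 (−0.04 and −0.24) and for Cxcl9 (−0.51 and −0.16). They lay on opposite sides of the mean in the GTPases (−0.46 and 0.39), the ISG15 system (−0.39 and 0.1) and Mx2 (0.09 and −0.21). These differences between groups were not tested. Wild-type replicate 3 was lowest in the signal transducers (−0.39), the ISG15 system (−0.39) and the GTPases (−0.46), but near the mean in the sensors (−0.07) and the OAS family (−0.06). Knock-in replicate 2 was lowest in the sensors (−0.46) and the OAS family (−0.36), where knock-in replicate 3 followed at −0.32. In the GTPases knock-in replicate 2 was the highest heart, at 0.39, and without Igtp it was at 0.19, under wild-type replicate 2 at 0.33. Over the 28 tested genes other than GTPases it was the lowest heart, at −0.22, with wild-type replicate 3 at −0.16. These positions of the low hearts were the same under the 4 scalings tried. The set without Igtp and the IFIT family are exceptions, since their lowest heart was wild-type replicate 3 under 2 scalings and knock-in replicate 2 under the other two.

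**Figure D4:**
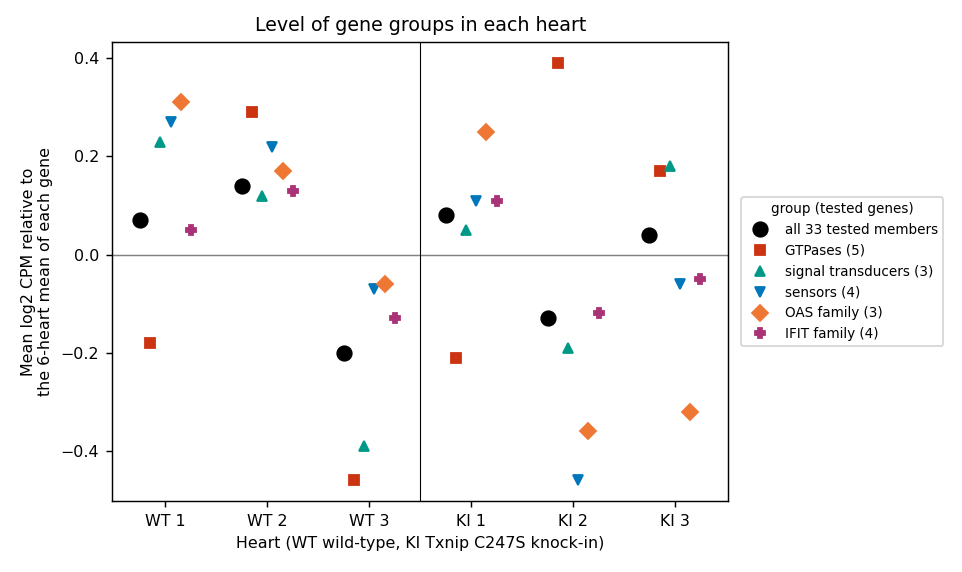
Mean log2 CPM relative to the 6-heart mean of each gene (vertical axis) in each heart (horizontal axis), for all 33 tested genes (black) and for 5 role groups (symbols), with the number of genes in brackets. In KI 2 the GTPases sit at 0.39 and the sensors at −0.46, and in WT 3 the GTPases and signal transducers are the lowest of the groups drawn.

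Genes upstream of the set were read from lists too short for their counts to stand apart from the 0.297% of all genes called. Of the 9 receptor and kinase genes 0 were called, with 4 log2 fold changes above 0 (48.3% of all genes) and 5 below. Jak1 had the smallest p among them, at 140, 154 and 178 CPM in wild-type and 120, 141 and 129 CPM in knock-in hearts (−0.27 ± 0.11, adjusted p = 0.450). The receptor genes Ifnar1 (−0.05 ± 0.12), Ifnar2 (0.14 ± 0.11), Ifngr1 (0.24 ± 0.16) and Ifngr2 (0.07 ± 0.12) lay near 0. In the list of 19 regulators, 17 were tested and 0 called. Of 18 tested genes of nucleic acid sensing 0 were called, with Rnaseh2c, a subunit of the enzyme that removes RNA from DNA, nearest (−0.56 ± 0.28, adjusted p = 0.558).

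A longer list of 71 further interferon-stimulated genes gave 63 tested and 0 called by edgeR, 28 above 0 and 35 below, with a median of −0.03. Without adjustment, 5 genes were higher and 1 was lower at p under 0.05, beside 4.74% and 5.23% of all genes in these directions. Isg20, an RNA exonuclease, had the smallest p, with 2.73, 4.16 and 2.49 CPM in wild-type and 6.90, 6.13 and 6.07 CPM in knock-in hearts. Its genotypes did not overlap (log2 fold change 1.02 ± 0.22, edgeR adjusted p = 0.123), and DESeq2 called it with an adjusted p of 0.0217. That was the only DESeq2 call among the 63, where DESeq2 called 1% of all genes. Wild-type replicate 3 and knock-in replicate 2 were each the lowest heart for 20 of these 63 genes (31.7%), beside 22.2% and 20.9% of all genes. Knock-in replicate 2 was the highest heart for 11 (17.5%), near its 19.0% of all genes. The averaged level of this list was 0.04, 0.11 and −0.14 in wild-type and −0.05, −0.03 and 0.07 in knock-in hearts. On that measure wild-type replicate 3 was again the lowest heart, while knock-in replicate 2 lay near the mean and above knock-in replicate 1.

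Iigp1, a vacuole-attacking GTPase of the same family as Igtp, was among the most variable genes of the longer list. It had 27.4, 47.4 and 32.0 CPM in wild-type and 23.4, 86.1 and 47.3 CPM in knock-in hearts, again highest in knock-in replicate 2 (0.55 ± 0.51, adjusted p = 0.804). Irgm2, the neighbour of Igtp, chosen after its values were seen, had 21.1, 28.3 and 20.3 CPM in wild-type and 22.6, 42.2 and 29.4 CPM in knock-in hearts (0.43 ± 0.22, adjusted p = 0.576). Of the 9 tested GTPase genes of the longer list, Iigp1, Irgm2 and Gbp6 were highest in knock-in replicate 2. Ifi47, Tgtp1, Tgtp2, Gbp4 and Gbp5 were highest in wild-type replicate 2 and Gbp9 in wild-type replicate 1. Tgtp2, for instance, had 15.4 CPM in wild-type replicate 2 and 12.8 CPM in knock-in replicate 2. Of the 31-base words of Tgtp2, 93.3% also occur in Tgtp1, so the split of reads between this pair is uncertain. For Gbp6, 64.5% of the words also occur in other genes. The monocyte chemokine genes Ccl7 (0.130 to 1.73 CPM) and Ccl12 (0.346 to 2.25 CPM) also varied widely, at levels near the floor in their lowest hearts.

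Markers of cell types that could carry these transcripts were read in the same hearts. In bulk tissue, fewer cells of a type and less RNA per cell cannot be told apart. The 14 macrophage and monocyte markers summed to 362 to 415 CPM in wild-type and 282 to 303 CPM in knock-in hearts. Of the 13 tested 12 had log2 fold changes below 0, where 48.3% of all genes were above 0. At an unadjusted edgeR p under 0.05, 7 were lower in the knock-in hearts, beside 5.23% of all genes. By edgeR 1 was called, Lyz2, the macrophage lysozyme gene (−0.60, adjusted p = 0.0399), beside 0.297% of all genes. DESeq2 called 2, beside 1% of all genes. The 7 endothelial markers summed to 765, 525 and 603 CPM in wild-type and 807, 506 and 800 CPM in knock-in hearts, with knock-in replicate 2 lowest, wild-type replicate 2 next and wild-type replicate 3 after it. The 15 lymphocyte and NK cell markers were at or near the floor, none of them tested, with summed levels of 1.23 to 2.77 CPM in wild-type and 2.93 to 4.28 CPM in knock-in hearts, highest in knock-in replicate 2. Of 8 neutrophil markers Elane had 0 counts in all hearts, and the sum ran from 3.89 to 7.96 CPM in wild-type and 8.32 to 17.5 CPM in knock-in hearts. Of the 4 neutrophil markers tested, 3 were higher in the knock-in hearts at an unadjusted edgeR p under 0.05, beside 4.74% of all genes. By edgeR 0 of the 4 were called and by DESeq2 1, beside 0.297% and 1% of all genes. Of 7 markers of plasmacytoid dendritic cells, which make type I interferon, Klk1 had 0 counts throughout and Siglech, Ccr9 and Ly6d had 0 to 4 counts per heart. The other 3, which other cells also express, were detected, with means over the 6 hearts of 59.3 CPM for Tcf4, 21.9 CPM for Bst2 and 3.54 CPM for Irf8. The 7 summed to 79.4 to 95.6 CPM in wild-type and 73.5 to 88.1 CPM in knock-in hearts. Fibroblast markers (6 genes) summed to 634 to 662 CPM in wild-type and 578 to 729 CPM in knock-in hearts, lowest in knock-in replicate 2, and 0 of them were called. The 6 heart muscle markers summed to more in each knock-in heart than in any wild-type heart. Of them 5 had log2 fold changes above 0, and 2 were higher at an unadjusted edgeR p under 0.05, beside 4.74% of all genes. Both edgeR and DESeq2 called 1, beside 0.297% and 1% of all genes. The 5 erythroid markers summed to 463 to 635 CPM in wild-type and 1450 to 1920 CPM in knock-in hearts, with a median log2 fold change of 1.44. All 5 were called by edgeR and by DESeq2, beside 0.297% and 1% of all genes. The part of these cells in the levels of the interferon-stimulated genes was not tested.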

How the data were processed

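The deposited table gives whole-number read counts per gene, 1 column per heart, with no normalization by the authors. GRCm38.p6 is the build in the submitters' processing notes, which list Subread 1.5.2, featureCounts, STAR and DESeq2 without saying what each did. Strand setting, annotation release and the handling of multi-mapped reads: not given in the sources used here. Columns were matched by the sample descriptions, and symbols, positions and exon lengths came from GENCODE M21 (GRCm38), which holds 49056 of the 49315 identifiers. Of 236 listed genes 235 matched.

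All genes were tested together with edgeR 4.0.16 in R 4.3.3 (filterByExpr by genotype, TMM, robust glmQLFit and glmQLFTest), over 6 hearts, 3 per genotype, with no covariate. A gene was called at an adjusted p under 0.05 (Benjamini-Hochberg, over all 12777 tested genes). SE is the log2 fold change over the square root of F, and 95% intervals use the fit's degrees of freedom. Heart levels use log2 CPM with a prior count of 2. Counting intervals are exact Poisson intervals and, like the floor of 3 counts, cover counting error only, as reads carry no molecular identifiers. Alternatives were DESeq2 1.42.0, limma-voom (limma 3.58.1), scaling by RLE, upper quartile or library size, a filter at a mean of 1 CPM or none, no robust estimation, an adjusted p under 0.1, prior counts of 0.5 and 5, and each heart left out. The 4-heart fit was added after seeing the data. The functions were tested on simulated counts.

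The genes and lists were chosen with earlier results of these data known. Described in full were the 8 tested genes with the smallest p, the 8 of widest range at a mean of at least 1 CPM and the 4 of highest CPM. Replicate numbers follow accession order and pair nothing.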

Additional observations from a re-analysis of the deposited data

How the results depend on the processing

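The count of 0 called genes held with each scaling, the 1 CPM filter, DESeq2, limma-voom, no robust estimation, an adjusted p under 0.1 and each heart left out. Without a filter on low counts 1 of 36 was called, Ifi27l2a, where 21655 genes were tested. The median log2 fold change ran from −0.13 to 0.04 with single hearts left out, a range that crosses 0. The span of the level between hearts was 0.27 to 0.35 with single hearts left out and 0.10 with both low hearts (wild-type replicate 3, knock-in replicate 2) omitted, a span that the choice of those hearts narrows. Of 16 genes described in full, 12 kept their sign in all 15 alternatives. With single hearts left out Gbp2 ran from −0.11 to 0.35, Irf7 from −0.19 to 0.33, Usp18 from −0.13 to 0.39 and Parp14 from −0.03 to 0.19. In the 4-heart fit Gbp2 was −0.09, Irf7 −0.02 and Usp18 −0.18, and Gbp7 was −0.62 (adjusted p = 0.055), against −0.46 to −0.04 with single hearts left out. Zbp1 ran from −0.86 to −0.13. Igtp ran from 0.52 to 1.48 over its alternatives, its adjusted p from 0.29 upwards. No paired analysis was possible because the labels give no shared replicate numbers. A 2-fold change was not bounded for Zbp1, Dhx58, Mx2 and Igtp, and groups of 3 hearts are too small for a test of single hearts.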
